A study of Mus musculus with 8 samples.

Results

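Mature products of the 5 microRNA (miRNA) hairpins miR-423, miR-574, miR-328, miR-296 and miR-202 were followed in C3H10T1/2, a line of mouse embryo fibroblasts that can form cartilage and bone cells and answers to hedgehog signals. The members were selected on their measured values, because these miRNAs stood higher in cells given IhhN than in uninduced cells of the same arrays. All array names of these hairpins that end in 5p or 3p were taken, which gave 9 of the 611 mouse miRNAs on the array. Of the 9, 7 had been listed at that choice, and the other 2, miR-202-5p and miR-296-3p, came in with the names. Signal well above background was found on all 8 arrays for 5 members (miR-423-5p, miR-574-5p, miR-328-3p, miR-296-5p and miR-202-3p), on 5 arrays for miR-574-3p, and on no array for miR-423-3p, miR-202-5p and miR-296-3p. The first 6 were among the 142 miRNAs that passed the filter on low signal.

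The WT group received wild type IhhN at 750 nM for 48 h, which is the signalling N-terminal part of Indian hedgehog. The MT group received E95K mutant IhhN at the same dose and time, which carries an amino acid change found in brachydactyly type A1. Cells of the control group were labelled as having no induction. The labels repeat 750 nM for the control samples too, so no dose was assigned to that group here. Each group had 2 RNA samples (n = 2), numbered replicate 1 and replicate 2, and nothing states whether they came from separate cultures, so the spread between them may be technical. Each WT sample was hybridized on 2 arrays, which were averaged as 1 replicate. All 8 arrays lay on 1 slide. The WT arrays filled row 1, and row 2 held the MT arrays in columns 1 and 2 and the control arrays in columns 3 and 4, so the row and WT against the other groups cannot be told apart. MT and control lay on different sides, and only the WT samples, 1 on each side, bridge them.

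A miRNA hairpin is cut into 2 arms, named 5p and 3p, and the arm that is loaded into an Argonaute protein lowers the output of mRNAs that pair with its seed, bases 2 to 8. Usually 1 arm is kept and the other is degraded. In the mouse, miR-296 is made in the imprinted Gnas region together with miR-298, miR-202 is best known from the gonads, and miR-574-3p has been linked to cartilage formation by mesenchymal stem cells. Hedgehog proteins bind Ptch1, which frees Smo and activates the Gli transcription factors.

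The mature sequences of the detected arms, and of miR-423-3p as the undetected partner arm of miR-423, are shown for the comparisons that follow. These use their seeds, the stretches they share with other miRNAs, and their base composition. They come from RefSeq on the build GRCm38.p6, are written 5′ to 3′, and have the seed in capitals.
mmu-miR-423-5p: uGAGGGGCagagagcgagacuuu
mmu-miR-423-3p: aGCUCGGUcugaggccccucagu
mmu-miR-574-5p: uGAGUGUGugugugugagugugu
mmu-miR-574-3p: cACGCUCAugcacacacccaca
mmu-miR-296-5p: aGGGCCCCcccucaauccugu
mmu-miR-202-3p: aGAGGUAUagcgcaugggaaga

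Of the 9 members, 8 had a mature sequence in the RefSeq table, and mmu-miR-328-3p was the member without one. On GRCm38.p6, miR-423-5p lies at chr11:77078122-77078144 on the minus strand, inside the span of the protein-coding gene Nsrp1. miR-574-5p lies at chr5:64970328-64970350 on the plus strand, where the spans of Fam114a1 and Tlr6 overlap. miR-296-5p lies at chr2:174267093-174267113 on the minus strand. miR-202-3p lies at chr7:139957695-139957716 on the minus strand, inside the lncRNA gene Gm16201. The table of spans was not used to assign exons or introns.

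None of the 8 shares its whole seed with another mouse miRNA on the array that has a sequence. miR-202-3p shares bases 2 to 7 with 9 miRNAs, 8 of the let-7 group and miR-98-5p, all of which were tested. Its longest stretch in common with any miRNA that has a sequence is 8 bases. That stretch length was found with miR-302b-5p, miR-411-5p, miR-763 and miR-882, none of which passed the filter. miR-574-5p is largely a repeat of U and G. Among the 476 of 611 mouse miRNAs on the array that have a sequence, its longest stretch in common with another is 11 bases, with miR-1187. The rest could not be compared. In the next pair of lines that stretch is in capitals.
mmu-miR-574-5p: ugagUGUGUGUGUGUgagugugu
mmu-miR-1187: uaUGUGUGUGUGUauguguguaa

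The values below are log2 intensities after arrays were scaled by the 75th percentile of their signal over 174 probes, those that were detected on every array, so that a difference is always relative to the brighter detected miRNAs, and without scaling most differences of the members from control were near 0, as given further on. Because different probes hybridize with different strength, levels are compared between samples and not between miRNAs. In bulk RNA, fewer cells that make a miRNA and less of it per cell cannot be told apart. The cells carried mesenchymal miRNAs, with 5 of 7 such markers (among them miR-199a-3p, miR-214-3p and miR-21-5p) detected on all arrays, miR-145-5p on 7 and miR-10b-5p on none. All 10 markers of liver, neurons, blood, muscle, endocrine cells and epithelium were detected on no array.

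miR-423-5p measured 6.06 and 6.12 on the arrays of WT replicate 1, 5.79 and 5.93 on those of WT replicate 2, 6.26 and 6.18 on the MT arrays, and 5.33 and 5.47 on the control arrays. Every array of treated cells lay above both control arrays, and both MT arrays lay above all 4 WT arrays. The WT group exceeded control by 0.57 (1.49-fold) and the MT group by 0.82 (1.76-fold), which ranked 7 and 5 among the 142 miRNAs tested. Replicates of WT had an SD of 0.16, those of MT 0.06 and those of control 0.10.

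miR-574-5p measured 7.31 and 7.44 on the arrays of WT replicate 1, 7.26 and 7.35 on those of WT replicate 2, 7.47 and 7.23 on the MT arrays, and 6.34 and 6.82 on the control arrays. The 6 arrays of treated cells overlapped each other and lay above both control arrays, which were 0.48 apart. The WT group exceeded control by 0.75 (1.69-fold, rank 2) and the MT group by 0.77 (1.70-fold, rank 10). Its size rested more on single control samples than that of the other members, since without control replicate 1 the differences were 0.51 and 0.53, and without control replicate 2 they were 0.99 and 1.01. The U and G rich miR-1187, with a scaled intensity of 22.7 to 55.9, was higher than control by 0.85 in the WT group and 0.58 in the MT group. How much of either signal is shared between the probes of these miRNAs was not tested.

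miR-202-3p, whose seed start it has in common with the let-7 group, measured 6.98 and 6.90 on the arrays of WT replicate 1, 6.95 and 7.02 on those of WT replicate 2, 7.01 and 7.06 on the MT arrays, and 6.28 and 6.51 on the control arrays. The replicates of treated cells lay close together, with an SD of 0.03 in WT and in MT against 0.16 in control. The WT group exceeded control by 0.56 (1.48-fold, rank 8) and the MT group by 0.64 (1.56-fold, rank 22). The 9 miRNAs of the let-7 group and miR-98-5p ranged from -0.20 to 0.53 for WT minus control, with a median of 0.19, and from -0.30 to 0.67 for MT minus control, with a median of 0.27. The values of miR-202-3p thus lay above all 9 in the WT comparison and below let-7b-5p in the MT comparison. Its scaled intensity was 77.8 to 133 units. Over the 9 the intensity ran from 63.3 to 89.0 units for miR-98-5p up to 4348 to 7791 for let-7c-5p. How much of the miR-202-3p signal is shared with these miRNAs was not tested.

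miR-328-3p measured 5.67 and 5.33 on the arrays of WT replicate 1, 5.18 and 5.15 on those of WT replicate 2, 5.43 and 5.61 on the MT arrays, and 4.88 and 4.77 on the control arrays. All treated arrays lay above control, with the WT replicates further apart than the replicates of the other groups (SD 0.23, against 0.13 in MT and 0.08 in control). The WT group exceeded control by 0.51 (1.42-fold, rank 16) and the MT group by 0.70 (1.62-fold, rank 13). These sizes were less settled than those of miR-202-3p, with 0.20 and 0.32 for the total gene signal. WT minus control was 0.84 with outlier spots kept, and MT minus control was 0.42 under normexp background correction. The mean of both probes gave 0.25 and 0.35. The second probe was at the floor on all arrays, so that mean was lowered by construction and does not bear on how settled the sizes are.

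miR-296-5p, in linear scaled units, measured 69.7 and 73.1 on the arrays of WT replicate 1, 62.4 and 64.2 on those of WT replicate 2, 75.9 and 76.7 on the MT arrays, and 53.8 and 46.9 on the control arrays. As for miR-423-5p, both MT arrays lay above all WT arrays and these above both control arrays. On the log2 scale the WT group exceeded control by 0.42 (1.34-fold, rank 26) and the MT group by 0.60 (1.52-fold, rank 24), the smallest differences among the 5 members detected on all arrays. Its partner arm miR-296-3p stayed at background, and miR-298-5p, the neighbour in the Gnas region, was detected on 1 array, the second of WT replicate 2.

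miR-574-3p measured 4.28 and 4.28 on the arrays of WT replicate 1, 4.52 and 4.40 on those of WT replicate 2, 4.38 and 4.92 on the MT arrays, and 4.13 and 4.08 on the control arrays. The last value is the floor of the scale, 16.9 scaled signal units, since the signal of control replicate 2 was 16.3. The probe was not well above background on the arrays of WT replicate 1 and MT replicate 1, where its signal before scaling was 17.7 to 18.3 units, and was so on the control arrays, where it was 26.4 and 19.0. The first array of WT replicate 1 and that of MT replicate 1 also had the noisiest negative controls, at an SD of 6.63 and 5.61 units where the other arrays had 2.91 to 3.76. The differences from control, 0.27 in the WT group (rank 52) and 0.55 in the MT group (rank 31), were the smallest of the 6 members. The MT value was 0.28 without MT replicate 2 and 0.81 without MT replicate 1, and the WT value was 0.18 without WT replicate 2. With Feature Extraction's total gene signal in place of the brightest probe the sign turned, to -0.51 in the WT group and -0.86 in the MT group.

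**Figure D1:**
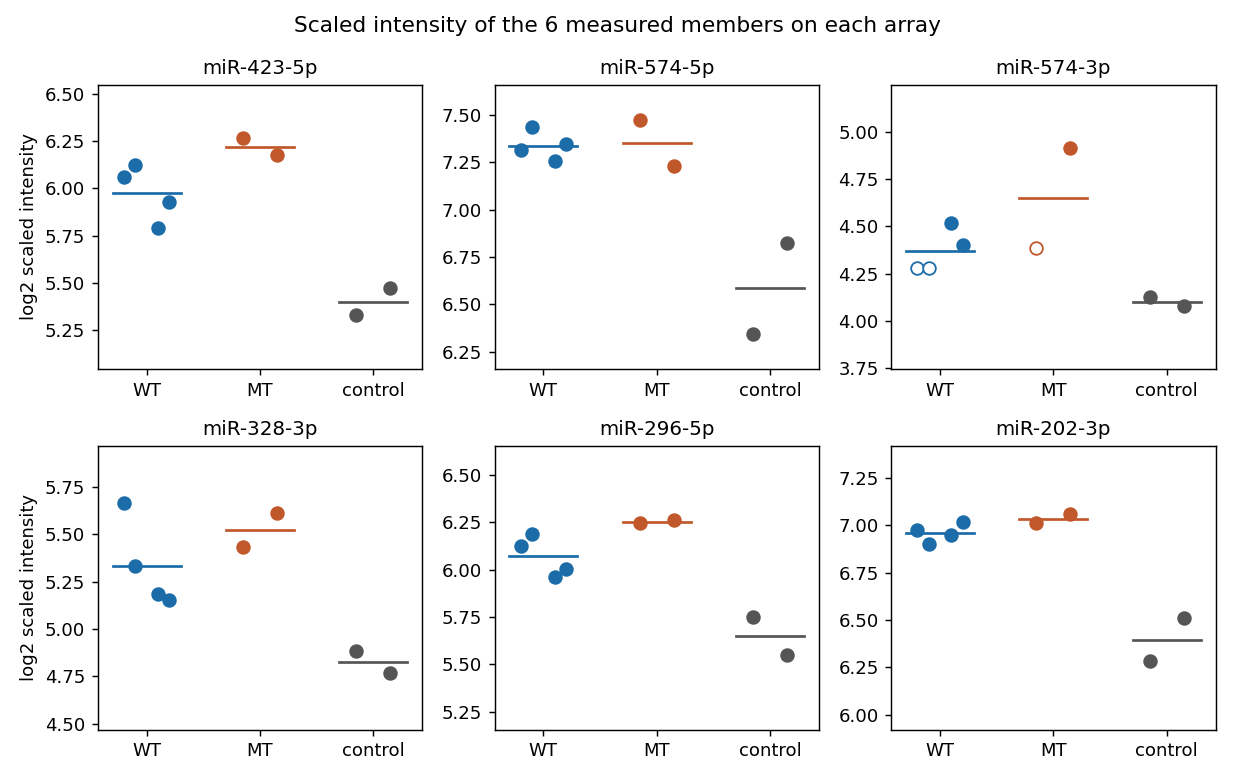
Log2 scaled intensity (vertical axis, each panel spanning the same range of 1.5) of the 6 members that passed the filter, with a point for each array of the WT, MT and control groups. Filled points were well above background and open points were not, bars are group means, and the 4 WT points are 2 arrays of replicate 1 followed by 2 of replicate 2. In every panel the treated arrays lie above the control arrays under this scaling, by the least for miR-574-3p, whereas without scaling they did so only for the WT arrays of miR-574-5p.

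The members had been chosen for standing higher than control, so their count is given with its background and without a test. Every WT array lay above every control array for 6 of the 6 members that passed the filter (1 without scaling), as it did for 42 of all 142 miRNAs tested (29.6%). Every MT array lay above every control array for 6 of 6 (0 without scaling), and for 58 of the 142 (40.8%). The median difference of the 5 members detected on all arrays was 0.56 for WT minus control and 0.70 for MT minus control, against 0.12 and 0.13 over all miRNAs tested. Both comparisons share the 2 control samples.

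miR-423-3p had a scaled intensity between -4.55 and 3.92 units over the 8 arrays, miR-202-5p between -2.03 and 2.58, and miR-296-3p between -7.28 and 3.49, all far under the floor of 16.9. None of these arms was well above background on any array, so for miR-423, miR-202 and miR-296 the array measured 1 arm of the hairpin in every group. For miR-423-3p this held although it has 10 bases in common with miR-25-3p, which was detected on all arrays at 101 to 149 units.

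For miR-574 the 5p arm was above background throughout and the 3p arm on 5 of the 8 arrays. The 5p arm exceeded the 3p arm by 3.10 and 2.84 on the log2 scale in the WT replicates, by 3.09 and 2.31 in the MT replicates, and by 2.22 and 2.75 in the control replicates. In WT replicate 1 and MT replicate 1 the 3p signal was not well above background, and in control replicate 2 it was set to the floor, so the values 3.10, 3.09 and 2.75 are not firm measurements of the arm ratio. The ranges of treated cells and control overlapped, with means of 2.83 and 2.48. As the miRNAs had been picked for standing higher in treated cells, the difference of 0.35 is a description without a test, and it ran from 0.07 with the percentile taken over all mouse probes to 1.36 with the total gene signal. It was 0.09 when control replicate 1 was left out and 0.62 when control replicate 2 was.

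The array carried 23 probes for the 9 members, of which 8 were detected on all arrays and 12 on none. The 8 probes had a standard error over their spots of 0.87% to 9.36% of the mean. For miR-574-5p, miR-296-5p and miR-202-3p a second probe was also detected on all 8 arrays. The second probe of miR-574-5p gave 0.83 for WT minus control and 0.73 for MT minus control, beside 0.75 and 0.77 at the brightest probe. That of miR-296-5p gave 0.37 and 0.60, beside 0.42 and 0.60, and that of miR-202-3p gave 0.55 and 0.51, beside 0.56 and 0.64. For miR-423-5p the second probe, detected on 6 arrays, gave 0.52 and 0.80, beside 0.57 and 0.82. Under the main scaling, the probe pairs of these 4 miRNAs thus moved in the same direction and differed by 0.13 at most. Both probes of a pair share their arrays and the scaling, and the members had been chosen for standing higher than control. A common direction was thus favoured beforehand and is a description without a test. It does not bear on whether the members rose. The second probe of miR-328-3p was not well above background on any array, so its values rest on 1 probe, as do those of miR-574-3p, for which the next best probe was detected on 1 array.

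**Figure D2:**
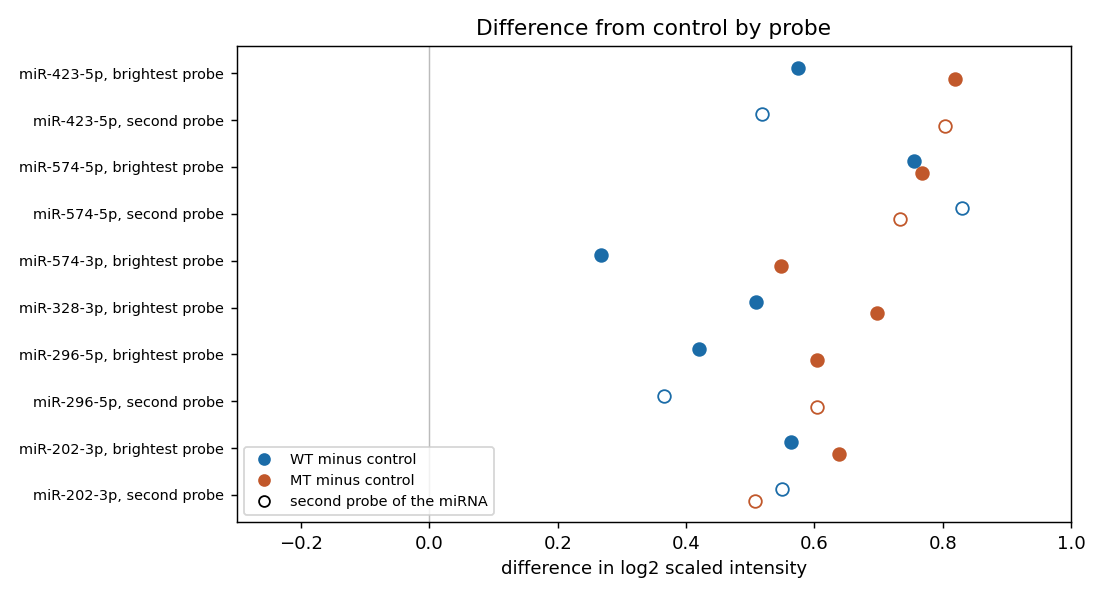
Difference from control in log2 scaled intensity (horizontal axis) at each probe of the members that was detected on at least 5 arrays, for WT minus control (blue) and MT minus control (orange). Filled points are the brightest probe of a miRNA and open points its second probe. Under the 75th percentile scaling all lie right of 0, from 0.27 for miR-574-3p in the WT group to 0.83 for the second probe of miR-574-5p in the WT group.

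The comparison of WT with MT asks whether the members differed between cells given the wild type and the mutant protein, and it was not used to choose them. In limma's test, adjusted over all 142 miRNAs, no member passed. The values of all 6 were lower in the WT than in the MT group, by 0.01 to 0.28, a direction that turned for 5 of them (not miR-574-3p) when the percentile was taken over all mouse probes. WT minus MT was -0.25 for miR-423-5p (95% interval -0.62 to 0.13), -0.28 for miR-574-3p (-0.77 to 0.21), -0.19 for miR-328-3p (-0.60 to 0.23), -0.18 for miR-296-5p (-0.56 to 0.19) and -0.08 for miR-202-3p (-0.44 to 0.29), each with limma's adjusted p = 0.99. For miR-574-5p it was -0.01 (-0.49 to 0.47, limma's adjusted p = 1.00). The narrowest of these intervals, that of miR-202-3p, leaves room for a WT level from 0.736 to 1.22 times that of MT. The intervals are not adjusted for the 142 miRNAs tested, so a larger difference than that could also fail to pass. These values shifted with single samples. Without MT replicate 2 and without MT replicate 1, miR-574-3p was -0.01 and -0.55. Over the samples left out, miR-423-5p ran from -0.36 to -0.13, miR-328-3p from -0.35 to -0.02 (both lower without WT replicate 1 and higher without WT replicate 2) and miR-296-5p from -0.27 to -0.10. With outlier spots kept miR-423-5p was -0.58 and miR-328-3p 0.14. Under all alternatives together the adjusted p of a member lay between 0.855 and 1.00.

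Limma called 0 of the 142 miRNAs tested for WT against MT (0%), with 0 at an unadjusted p under 0.05. Without a test, both MT arrays lay above all WT arrays for 2 of the 6 members, miR-423-5p and miR-296-5p, and for 15 of the 142 miRNAs (10.6%). All WT arrays lay above both MT arrays for 0 of the 6 members, and for 6 of the 142 (4.23%). Over all miRNAs tested the median of WT minus MT was -0.04, and over the 5 members detected on all arrays it was -0.18. Compared on the left side of the slide alone, WT replicate 1 minus MT was -0.13 for miR-423-5p, 0.02 for miR-574-5p, -0.37 for miR-574-3p, -0.02 for miR-328-3p, -0.10 for miR-296-5p and -0.10 for miR-202-3p. On the right side alone, WT replicate 2 exceeded control by 0.46, 0.72, 0.36, 0.34, 0.33 and 0.59 for the same miRNAs in the same order. With a term for the side in the fit, estimated from the WT samples alone, MT minus control was 0.59, 0.69, 0.73, 0.37, 0.43 and 0.68.

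**Figure D3:**
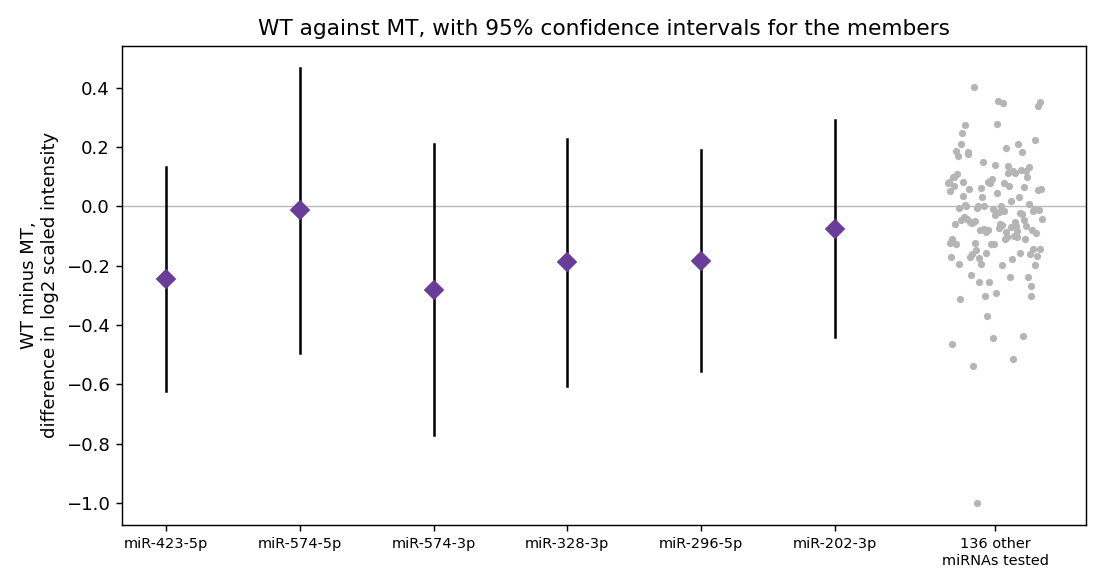
WT minus MT in log2 scaled intensity (vertical axis) for the 6 members tested, with bars for the 95% confidence interval of limma's fit (n = 2 RNA samples per group), beside the differences of the 136 other miRNAs tested (grey). Every interval of a member includes 0.

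How high the members stood against control depended on the scaling. The 75th percentile by which an array was divided was 442 to 565 signal units on the WT arrays, 432 and 442 on the MT arrays, and 785 and 606 on the control arrays, so the control arrays were brighter overall and were scaled down. Without any scaling, miR-423-5p read 51.9 to 63.3 units in the WT group, 65.5 and 60.2 on the MT arrays, and 60.8 and 51.9 on the control arrays, and the groups overlapped. miR-202-3p read 109 to 135 units in the WT group, 110 and 111 in the MT group, and 118 and 107 in control, again with overlap. The groups also overlapped for miR-296-5p and miR-328-3p. For miR-574-5p the WT arrays, at 139 to 166 units, stayed above the control arrays at 123 and 132, while the MT arrays, at 151 and 125, did not both do so.

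On the unscaled log2 scale the WT group differed from control by 0.08 for miR-423-5p, 0.26 for miR-574-5p, 0.02 for miR-328-3p, -0.07 for miR-296-5p and 0.07 for miR-202-3p. The MT group differed by 0.16, 0.11, 0.04, -0.05 and -0.02 in the same order. The median of all 142 miRNAs was then -0.32 for WT minus control and -0.50 for MT minus control. The members were thus close to level between treated and control arrays in raw intensity while the median miRNA tested was dimmer in treated cells.

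Dividing an array by 1 number moves the members and the median of all miRNAs alike, so the distance between them is nearly fixed whatever number is used. The members' median exceeded that of all miRNAs tested by 0.45 for WT minus control and 0.57 for MT minus control under the main scaling, and by 0.39 and 0.54 without scaling. Quantile normalization and the total gene signal change more than a constant. Under the first the distance was 0.42 and 0.51, and under the second 0.50 and 0.52. With the total gene signal 58 of 166 miRNAs lay above the lowest of the 5 members for WT minus control, against 25 of 142 under the main scaling. With the 75th percentile taken over all mouse probes, most of which held no signal, the members' own median was 0.21 for WT minus control and -0.02 for MT minus control, while that of all miRNAs tested was -0.19 and -0.52. Whether total miRNA, labelling or hybridization differed between the arrays was not tested.

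**Figure D4:**
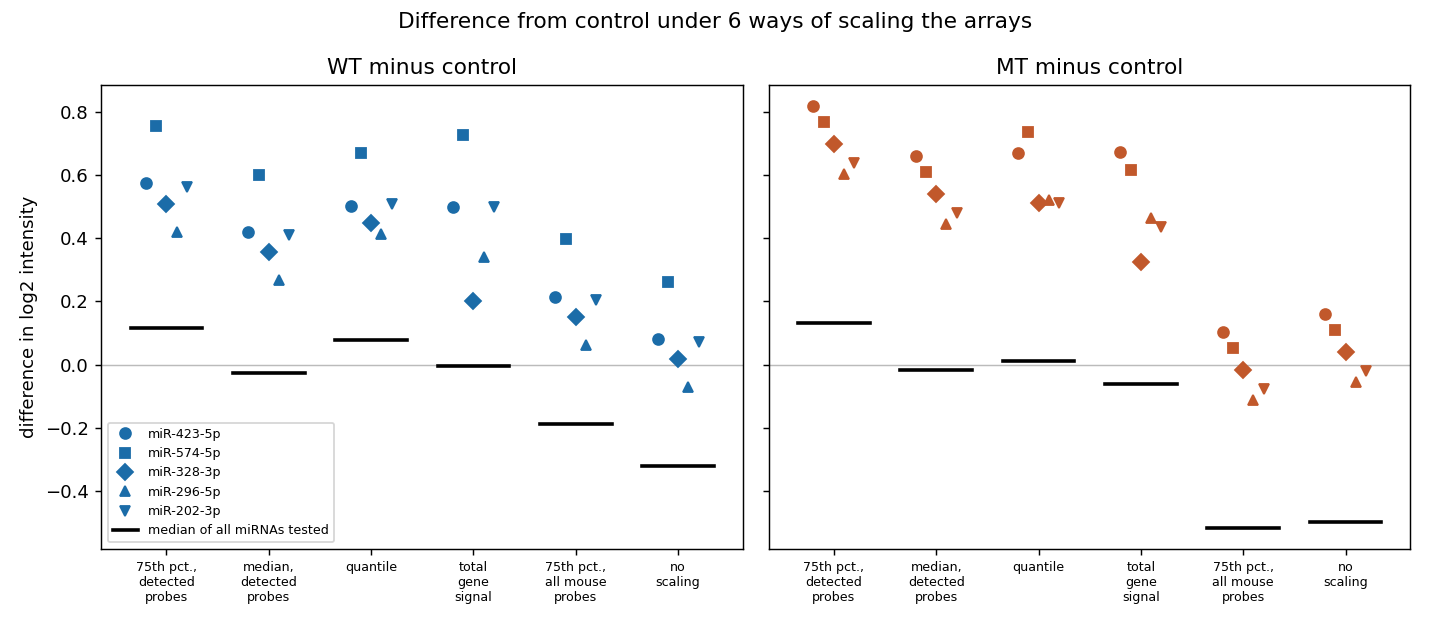
Difference from control in log2 intensity (vertical axis) of the 5 members detected on all arrays, WT left and MT right, under 6 ways of scaling the arrays (pct., percentile). The black bar is the median of all miRNAs tested under the same scaling. Symbols and bars move down together when the arrays are not scaled, with the members near 0 and the bars at -0.32 and -0.50.

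The members held more G and C than the median of the miRNAs tested. The choice used the difference from control, which rose with the share of G and C, as given below. A high share among the members is therefore not independent of the choice. Their mature sequences held 47.8% (miR-574-5p) to 66.7% (miR-296-5p) G and C, with a median of 56.5% over the 5 tested members with a sequence, against 47.6% over the 118 of the 142 miRNAs that had one. When these 118 were split into 4 bins of 29 or 30 by that share, with ties divided by their order in the list, the median of WT minus control was -0.29 in the bin with the least G and C, then 0.01, 0.21 and 0.40 in the bin with the most. For MT minus control the medians were -0.23, -0.08, 0.18 and 0.55. In the highest bin, 28 of 30 miRNAs were above 0 in the WT group and 29 of 30 in the MT group, against 8 and 10 of 30 in the lowest. miR-574-5p and miR-202-3p fell in the next highest bin, miR-423-5p, miR-574-3p and miR-296-5p in the highest, and no member in the lower 2 bins.

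Places among other miRNAs of like composition rest on the differences by which the members were chosen. A high place was thus favoured by the choice and is a description without a test. Not all members stood high there. miR-296-5p differed from the median of the 27 others in its bin by 0.02 for WT minus control and by 0.08 for MT minus control, and miR-574-3p by -0.13 and 0.02. miR-423-5p exceeded that median by 0.18 and 0.29, with 2 of the 27 higher in each comparison. In the next highest bin, miR-574-5p exceeded the median of 27 others by 0.56 and 0.60, with 0 and 1 of them higher, and miR-202-3p by 0.37 and 0.48, with 0 and 2 higher. The part of base composition in the difference from control was not tested.

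The same bins were set against other differences, several of which involve no control sample. The median of the highest bin exceeded that of the lowest by 0.69 for WT minus control and 0.78 for MT minus control. It did so by 0.32 for WT replicate 1 minus WT replicate 2, which were given the same protein but lay on different sides of the slide. Between MT replicates, which shared a side, the gap was 0.13, and between control replicates, which also shared a side, it was 0.02. Between the 2 arrays of 1 RNA sample it was 0.02 for the first WT sample and -0.05 for the second, and for WT minus MT it was -0.07. On the right side of the slide alone, WT replicate 2 minus control gave 0.45. All these are descriptions of 118 miRNAs that share their arrays. For the WT replicates the side of the slide and the RNA sample cannot be told apart. The cause of these gaps was not tested.

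**Figure D5:**
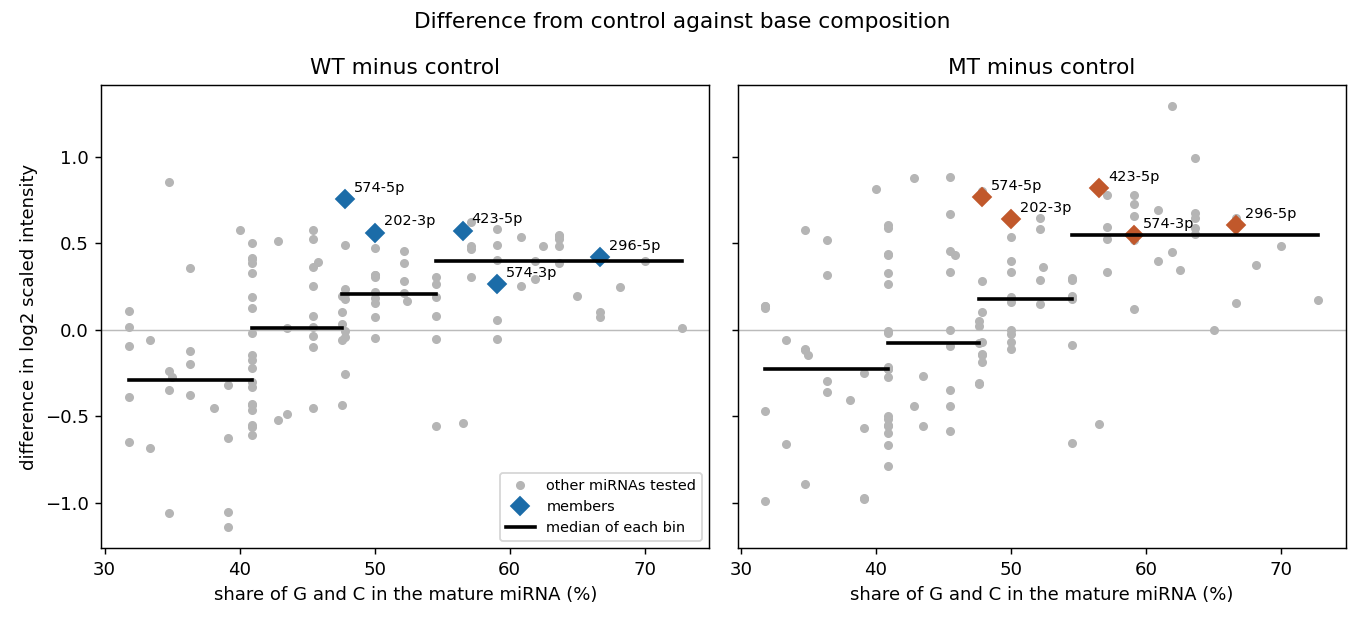
Difference from control in log2 scaled intensity (vertical axis) against the share of G and C in the mature miRNA (horizontal axis, %), WT left and MT right, for the 118 tested miRNAs with a sequence. Diamonds are the 5 members with a sequence, grey points the other miRNAs, and black bars the median of each of 4 bins, which step up from -0.29 to 0.40 in the WT panel and from -0.23 to 0.55 in the MT panel.

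The 5 miRNAs outside the group whose profile over the 6 RNA samples was nearest to the mean profile of the 5 members detected on all arrays were miR-99b-5p, let-7b-5p, miR-484, miR-92a-3p and miR-148b-3p. Their root mean square difference from that profile, on the log2 scale after each profile was centred, was 0.05 for miR-99b-5p, 0.06 for let-7b-5p, 0.07 for miR-484, 0.08 for miR-92a-3p and 0.09 for miR-148b-3p. The members themselves lay at 0.06 (miR-423-5p) to 0.15 (miR-574-5p), and miR-574-3p, which was not part of the mean, at 0.23. miR-99b-5p was 0.55 above control in the WT group and 0.68 in the MT group, let-7b-5p 0.53 and 0.67, and miR-148b-3p 0.42 and 0.59. Profiles as near as those of the members were thus also found among miRNAs that had not been chosen.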

How the data were processed

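The authors deposited the scanner output of 8 one-colour arrays, with the background-subtracted intensity of every spot and other marks set by Agilent Feature Extraction (version 9.1 in the submitters' processing notes, 10.7.1.1 and build mm9 per the file headers). The deposited table of the series holds the same intensity to within 0.005 units, without scaling between arrays (column medians -0.09 to 2.31), so its values were not used separately. Control and outlier spots were left out, spots of a probe averaged, arrays scaled, a floor set, and log2 taken. The brightest probe stood for a miRNA. A probe was detected where over 50% of its spots were well above background, and a miRNA where any of its probes was (104 to 150 miRNAs an array). miRNAs that were detected throughout 1 group or more, 142 in number, were fitted with limma 3.58.1 in R 4.3.3 (lmFit and eBayes, all groups, Benjamini-Hochberg, threshold 0.05). The fit was tried on simulated data with shifts far larger than the members' differences between WT and MT. That trial does not show what the fit can find at smaller sizes. The members, lists and nearest-profile rule were chosen with earlier results of these data known, and WT or MT against control was therefore not tested. All 9 members, listed companion miRNAs on the array and the 5 nearest profiles are named. Alternatives covered scaling, signal column, background, floor, filter, probes, outliers, technical arrays, block, slide side, trend, samples fitted and each replicate left out. That without scaling was chosen after seeing the data. miR-1187, miR-25-3p and the let-7 group were named for sequence. The arm difference of miR-423 was not computed, and the exact permutation test planned for that of miR-574 is not reported, since it contrasts treated cells with control, as the choice did, and 6 samples could not take it under 0.05. The number of arrays limits the precision.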

Additional observations from a re-analysis of the deposited data

How the results depend on the processing

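Limma's 0 calls for WT against MT became 1 (miR-188-5p, not a member) without MT replicate 2, so the range with a replicate left out was 0 to 1, and the count was 0 in every other alternative. At an unadjusted p under 0.05 there were at most 8, again without MT replicate 2. With the replicate block 0 were called. Same-numbered samples deviated together only for WT and control (r = 0.39, against 0.02 for WT and MT and -0.46 for MT and control). Each group gives a single difference between replicates, and only the WT replicates lay on different sides of the slide. These values therefore cannot settle whether the numbers pair the samples. The arm difference of miR-574 was 1.36 with the total gene signal, and 0.09 to 0.62 with a replicate left out. No arm difference could be had with only miRNAs detected on all 8 arrays, which drops miR-574-3p.

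The members' sign against control depended on the scaling. With the 75th percentile over all mouse probes every WT array was above every control array for 0 of the 6 members and every MT array for 0, and without scaling for 1 and 0. The median over the 5 members detected on all arrays was then 0.21 and 0.071 for WT minus control and -0.018 and 0.039 for MT minus control. It was 0.41 and 0.54 under median scaling, and for MT minus control 0.52 under quantile normalization and 0.46 with the total gene signal. Relative to all miRNAs tested, it was 0.32 for WT minus control and 0.42 for MT minus control under normexp. With a term for the slide's left and right side this relative median was 0.32 for WT minus control. With a replicate left out it was 0.32 (without WT replicate 1) to 0.58 (without control replicate 2) for WT minus control. For MT minus control it was then 0.45 (without MT replicate 2) to 0.68 (without control replicate 2). The rise from the lowest to the highest bin of G and C was 0.28 for WT minus control and 0.39 for MT minus control under normexp. It was 0.30 and 0.41 without a filter, 0.46 and 0.58 with the mean of all probes, and 0.45 and 0.39 with the side of the slide. With a replicate left out it was 0.45 to 0.84 for WT minus control. Normexp was run with an offset of 50 signal units, which makes log2 differences of dim miRNAs smaller. Without a filter, or with all probes averaged, signals at the floor enter, where differences are held near 0.

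WT minus MT, which was past the threshold for no member, turned positive with scaling over all mouse probes for miR-423-5p (0.11), miR-574-5p (0.34), miR-328-3p (0.17), miR-296-5p (0.17) and miR-202-3p (0.28), with the total gene signal for miR-574-5p (0.11), miR-574-3p (0.35) and miR-202-3p (0.063), without scaling for miR-574-5p (0.15) and miR-202-3p (0.090), and with outlier spots kept for miR-328-3p (0.14). For miR-574-5p it was also 0.028 under normexp, 0.042 with the mean of all probes, 0.040 with the second technical array alone, 0.024 with the slide's side, and -0.14 to 0.11 with a replicate left out. MT minus control turned negative over all mouse probes for miR-328-3p (-0.018), miR-296-5p (-0.11) and miR-202-3p (-0.076), and without scaling for miR-296-5p (-0.054), miR-202-3p (-0.019) and miR-574-3p (-0.053). WT minus control did so without scaling for miR-296-5p (-0.071) and miR-574-3p (-0.16). With the total gene signal miR-574-3p was -0.51 for WT minus control and -0.86 for MT minus control. Some of these settings, such as that with outlier spots kept, left the way of scaling as it was. What turned the signs was tested for none of the settings.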
